A study of Bos taurus with 24 samples.

Results

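The genes described here are 10 immediate early genes of the serum response, FOS, FOSB, FOSL1, JUN, JUNB, EGR1, IER2, IER3, MYC and SRF, taken by symbol from a table of exon read counts for 24621 bovine genes. All 10 symbols were in the table, and all 10 were listed as protein-coding genes in RefSeq. The counts came from 24 single Holstein early blastocysts, 8 per culture, each sequenced as its own library. The in vivo group (embryos named A, 5 male and 3 female) was flushed from superovulated cows after artificial insemination. The serum group (embryos named B, 3 male and 5 female) was matured, fertilised and cultured in vitro, with foetal bovine serum (FBS) at 20% during oocyte maturation and at 5% during culture. The serum-free group (embryos named C, 5 male and 3 female) was also produced in vitro. Its maturation medium held epidermal growth factor (EGF) at 20 ng/mL and no serum, and its culture medium held 0.4% bovine serum albumin together with insulin and transferrin, each at 5 µg/mL, and selenium at 5 ng/mL. The serum-free group had therefore met growth factors too, and the 2 media differed in more than serum. One bull sired all 3 groups, and the in vivo embryos shared a few dams. Which cow, in vitro experiment or sequencing lane an embryo belonged to is not given in the labels, so each p-value below measures the spread between embryos only.

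Immediate early genes are switched on within minutes of a growth signal, without new protein synthesis, and most of their transcripts are short-lived. Serum is the classical trigger in cultured cells. Growth factors and lipids in it activate the ERK cascade and other signals, which act through serum response factor (SRF) and its cofactors on the promoters of FOS, EGR1 and other members of the class. FOS and JUN family proteins pair to form the transcription factor AP-1, EGR1 is a zinc finger transcription factor, and MYC drives growth and ribosome production. Mechanical handling and heat can also induce many of these genes. Embryos were washed and then lysed, and whether collection itself changed the levels was not tested.

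Total exon counts ran from 3253051 to 9000447 per embryo, with a median of 4454031. The 10 genes together held 0.0259% of all counts. A count of 3, taken as the floor below which a level is not interpreted, corresponded to 0.333 to 0.922 CPM (counts scaled to a common library size) depending on the embryo. These limits cover counting error only, and the libraries were amplified by PCR without molecular identifiers. Levels are given as CPM after normalisation by the trimmed mean of M-values (TMM) and are not corrected for gene length, so a level is compared between embryos and never between genes. As each library is a whole embryo, fewer cells of a type and less transcript per cell cannot be told apart. The trophectoderm keratins KRT8 and KRT18 and the inner cell mass factor POU5F1 were at 15 counts or more in all 24 embryos. CDX2, a trophectoderm factor, had 0 to 11 counts per embryo, and the hypoblast marker SOX17 was at 0 in every in vivo and serum embryo.

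A gene entered a test when, in 1 or both of the groups compared, no embryo had fewer than 15 counts of it. It was called when its fold change was at least 2 with an adjusted p under 0.05 over all genes tested. FOS, IER2 and IER3 reached 15 counts in all 24 embryos, EGR1 in 23 and JUNB in 21. The other 5 genes did not pass in the comparisons of whole cultures. SRF reached 15 counts in 17 embryos, JUN in 15, MYC in 11, FOSL1 in 3 and FOSB in 1. Thus 5 of the 10 genes could be tested between in vivo and either in vitro group, and 4 between serum and serum-free, where JUNB did not pass. The values of genes below the limit are given from fits that kept every gene with a count, in which 7.32% of 19159 genes were called between in vivo and serum, 0.772% of 19171 between in vivo and serum-free and 2.97% of 19155 between serum and serum-free.

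One gene of the 10, EGR1, was called in a comparison of whole cultures: it was 2.75-fold higher in serum than in serum-free embryos. By the quasi-likelihood test of edgeR, none of the 5 genes tested was called between in vivo and serum, and none between in vivo and serum-free. The background differed widely among the comparisons. Of all genes tested, 13.7% were called between in vivo and serum (1008 of 7339, with 6.81% higher in vivo and 6.92% higher in serum), 2.24% between in vivo and serum-free (164 of 7314) and 8.97% between serum and serum-free (644 of 7181). Against these rates, 0 of 5, 0 of 5 and 1 of 4 genes were called. At an unadjusted p under 0.05, IER3 passed between in vivo and serum, as did 3046 of the 7339 genes tested. FOS, JUNB and EGR1 passed it between in vivo and serum-free, as did 1580 of 7314, and FOS and EGR1 between serum and serum-free, as did 2389 of 7181. DESeq2 called IER3 between in vivo and serum and EGR1 between in vivo and serum-free. The 3 comparisons share groups pair by pair, so their fold changes are not independent of each other.

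**Figure D1:**
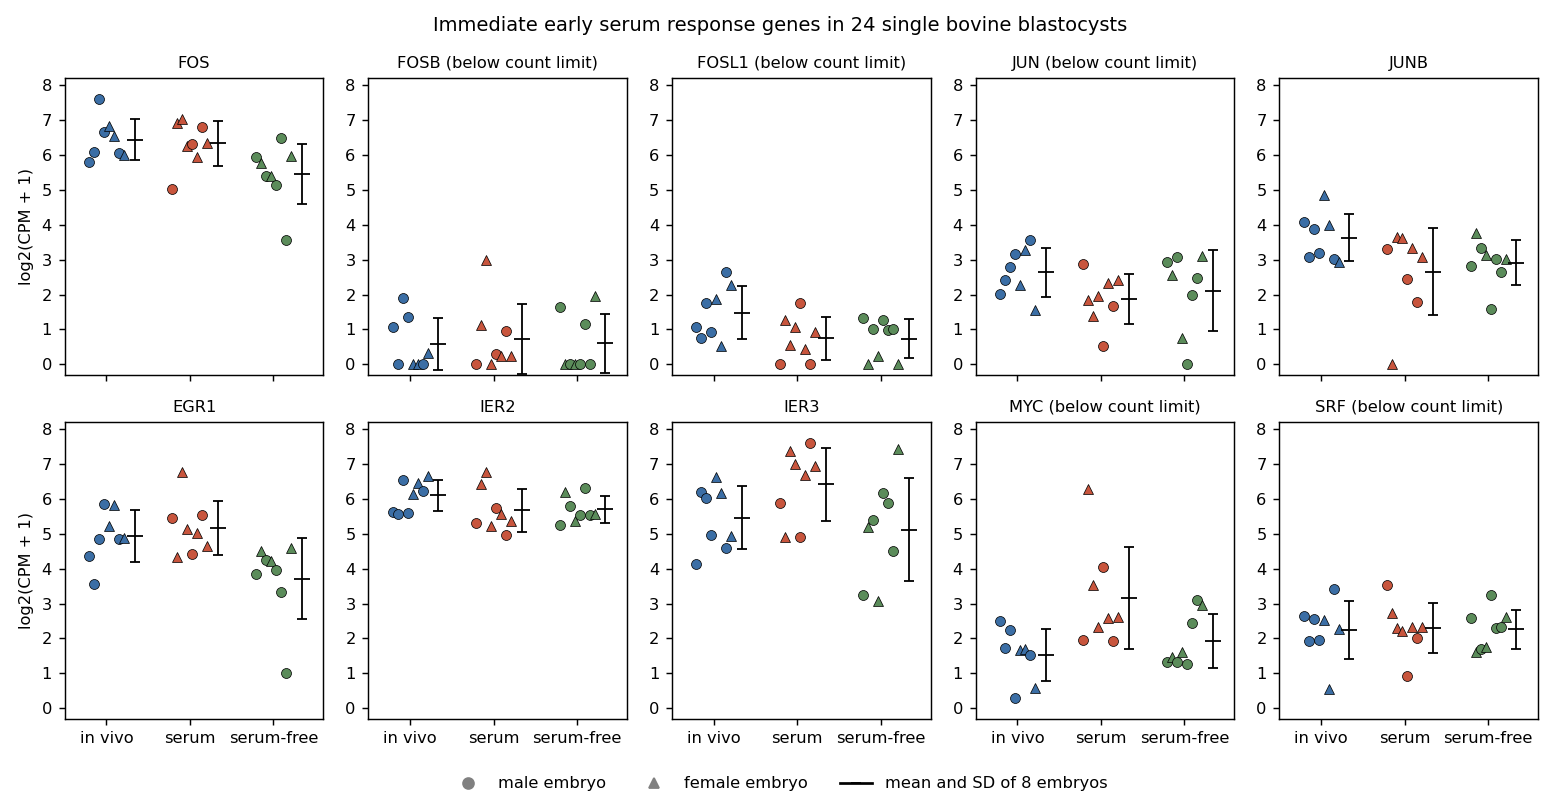
Level of each of the 10 genes in each of 24 embryos, as log2(CPM + 1), by culture. Circles are male and triangles female embryos, and the bar beside each group gives the mean and SD of 8 embryos. The groups overlapped for every gene. EGR1 lay lower in serum-free embryos, with C7 lowest at 1.01 CPM, and MYC was highest in the serum embryo B2 at 77.9 CPM.

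FOS, the founding member of the class and the partner of JUN proteins in AP-1, was read in every embryo, with 43 to 986 counts. In vivo embryos had 54.6 CPM at the lowest (A1), a median of 79.6 CPM and 194 CPM at the highest (A3). Serum embryos ran from 31.7 CPM (B1) through a median of 79.7 CPM to 129.8 CPM (B3). Serum-free embryos ran from 10.8 CPM (C7) through a median of 47.4 CPM to 88.2 CPM (C6). The medians of the in vivo and serum embryos were close, and 5 of 8 serum-free embryos lay below the lowest in vivo embryo, although the ranges overlapped. Mean FOS was 93.6 ± 45.5 CPM in vivo, 86.1 ± 32.5 CPM in serum and 49.0 ± 22.8 CPM in serum-free embryos (SD, n = 8 each). The log2 fold change was 0.10 (SE 0.28) for in vivo over serum, with a 95% interval of -0.45 to 0.66 and an adjusted p of 0.808 in edgeR's quasi-likelihood test. It was 0.92 (SE 0.31, adjusted p = 0.0813) for in vivo over serum-free and 0.82 (SE 0.33, adjusted p = 0.0873) for serum over serum-free. Neither passed the test, and each was under 2-fold. Without C6, the highest serum-free embryo, the in vivo over serum-free value became 1.10 with an adjusted p of 0.0440, which would be called.

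JUNB, a JUN family protein that often dampens the activity of JUN, was the only other AP-1 gene that could be tested. It ran from 6.71 CPM (A9) through a median of 10.9 CPM to 28.1 CPM (A6) in vivo. In serum it ran from 0 counts in B2, against a floor of 0.658 CPM, through a median of 8.15 CPM to 11.6 CPM (B3). In serum-free embryos it ran from 1.97 CPM (C4) through a median of 7.17 CPM to 12.5 CPM (C10). The 4 highest in vivo embryos stood above all in vitro embryos, and the groups otherwise overlapped. The log2 fold change was 0.87 (SE 0.52, adjusted p = 0.215) over serum and 0.83 (SE 0.35, adjusted p = 0.170) over serum-free, and neither was called. JUNB entered both tests through the in vivo group alone, where its median was highest.

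FOSB and FOSL1 were near the floor of detection, and JUN reached 15 counts in 15 of 24 embryos. FOSB, a FOS family protein, was at 0 counts in 4 in vivo, 2 serum and 5 serum-free embryos, and its highest value was 30 counts in the serum embryo B3. FOSL1, a FOS family protein prominent in trophoblast, had 2 to 22 counts in vivo, 0 to 21 in serum and 0 to 8 in serum-free embryos. JUN, the classical FOS partner, had 8 to 46 counts in vivo, 4 to 24 in serum and 0 to 35 in serum-free embryos. In fits without the count limit the log2 fold change of FOSL1 was 1.31 (SE 0.81) for in vivo over serum and 1.49 (SE 0.79) for in vivo over serum-free, with adjusted p of 0.306 and 0.371. That of JUN was 0.96 (SE 0.54, adjusted p = 0.257) for in vivo over serum and 0.45 (SE 0.58, adjusted p = 0.760) for in vivo over serum-free. That of FOSB was -0.64 (SE 1.15, adjusted p = 0.752) and -0.13 (SE 1.13, adjusted p = 0.988). None of these differences was called, and with an SE of 0.54 to 1.15 a 2-fold difference could have been missed.

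EGR1, a zinc finger transcription factor whose promoter carries several SRF sites, gave the one call. Serum-free embryos held 4 to 104 EGR1 counts, against 82 to 469 in serum and 62 to 256 in vivo. In CPM, serum-free embryos ran from 1.01 (C7) through a median of 16.1 to 23.3 (C8). Serum embryos ran from 19.4 CPM (B2) through a median of 33.1 CPM to 108.7 CPM (B3), and in vivo embryos from 10.9 CPM (A2) through a median of 28.5 CPM to 56.6 CPM (A4). Of the 8 serum embryos, 6 lay above every serum-free embryo, and all 8 lay above the serum-free median; B2 and B5 fell within the serum-free range. EGR1 was higher in serum than in serum-free embryos, by 1.46 on the log2 scale (SE 0.45, 95% interval 0.58 to 2.33, 2.75-fold, adjusted p = 0.0329). It entered this test through the serum group alone, where its median was higher, because C7 lay below the count limit. With the limit set in every embryo of both groups, EGR1 was not tested between the media. It likewise entered the test of in vivo against serum-free embryos through the in vivo group alone. The value for in vivo over serum-free was 1.14 (SE 0.40, adjusted p = 0.0933), with 6 of 8 in vivo embryos above every serum-free embryo. The value for in vivo over serum was -0.32 (SE 0.37, adjusted p = 0.535), with a 95% interval of -1.04 to 0.41. The call between the media was close to the threshold: leaving out 1 of B3, B7, C1, C4 or C6 raised the adjusted p to between 0.0506 and 0.0872, with the largest loss for B3 (log2 fold change 1.06). Without C7, the serum-free embryo with 4 counts, the log2 fold change was 1.28 and the adjusted p 0.0336. Without the count limit the adjusted p was 0.0555. For in vivo over serum-free, DESeq2 gave an adjusted p of 0.0384, so that this call depended on the test used.

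**Figure D2:**
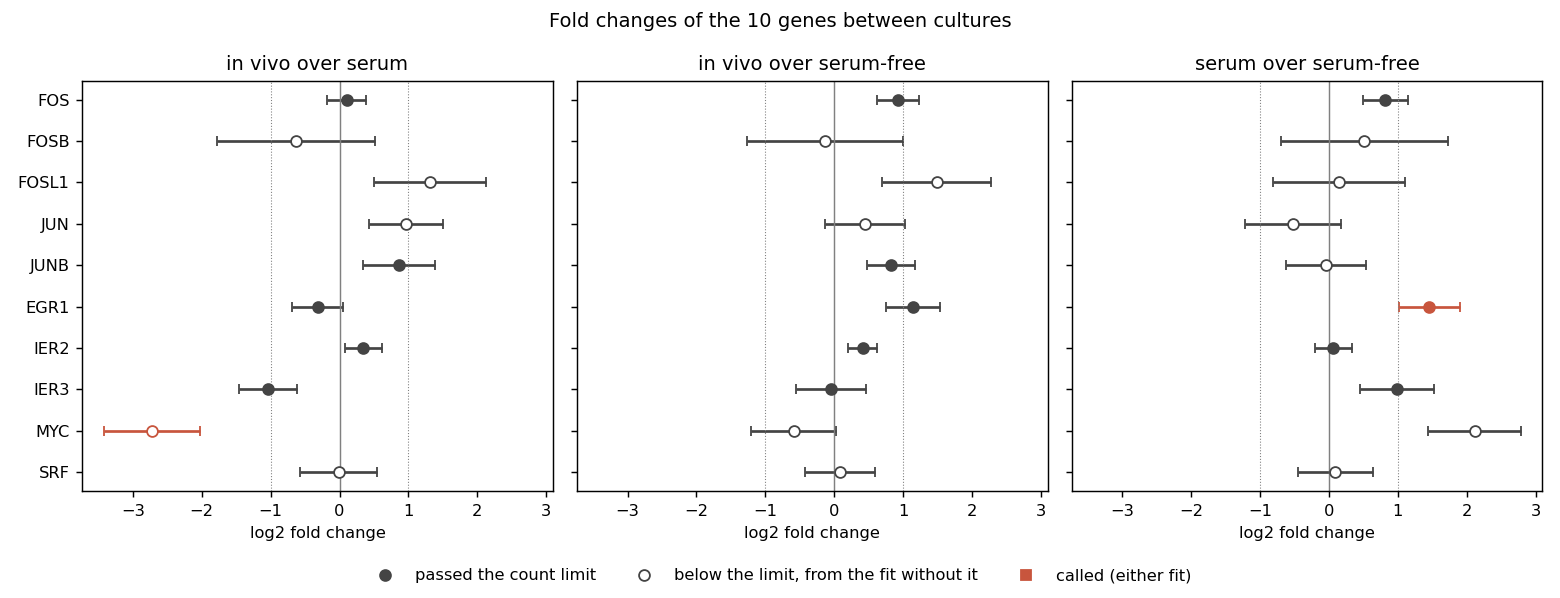
Log2 fold change of each of the 10 genes in each comparison of whole cultures, with its SE, from 8 against 8 embryos. Filled points passed the count limit, open points come from fits without it, red marks a call in the fit shown, and dotted lines mark 2-fold. Red points are EGR1 for serum over serum-free (1.46) and MYC for in vivo over serum (-2.73).

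IER2, a short nuclear protein with a role in transcription and cell movement, had the smallest SD of log2(CPM + 1) of the 5 tested genes in each culture. It had 99 to 473 counts, with medians of 71.8 CPM in vivo, 43.6 CPM in serum and 46.1 CPM in serum-free embryos. The lowest embryo was B7 at 30.4 CPM and the highest B3 at 109.2 CPM, both in serum. Every in vivo embryo lay above the medians of both in vitro groups, but the ranges overlapped. The log2 fold change was 0.35 (SE 0.27, adjusted p = 0.340) for in vivo over serum, 0.41 (SE 0.21, adjusted p = 0.254) for in vivo over serum-free and 0.06 (SE 0.27, adjusted p = 0.897) for serum over serum-free.

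IER3, a membrane protein that protects cells from apoptosis and is induced by serum and by NF-kappa B, spread widely. In vivo embryos ran from 16.7 CPM (A1) through a median of 47.4 CPM to 98.6 CPM (A6). Serum embryos ran from 29.3 CPM (B5) through a median of 111.8 CPM to 194.9 CPM (B7). Serum-free embryos ran from 7.45 CPM (C3) through a median of 38.8 CPM to 172 CPM (C8). Of the serum embryos, 5 of 8 lay above every in vivo embryo, while B2 and B5, at 29.4 and 29.3 CPM, lay low. Means were 50.8 ± 29.7 CPM in vivo, 103 ± 61.1 CPM in serum and 52.2 ± 53.5 CPM in serum-free embryos (SD, n = 8 each). The log2 fold change was -1.04 for in vivo over serum (SE 0.42, 95% interval -1.86 to -0.22), with an adjusted p of 0.0682, so it was not called. The call depended on the test, since the exact test of edgeR gave 0.0433 and DESeq2 0.0415, and on single embryos, since leaving out A6, B2 or B5 gave 0.0398, 0.0295 and 0.0363. For serum over serum-free it was 0.99 (SE 0.54, adjusted p = 0.209), which became 1.57 with an adjusted p of 0.0454 without C8, the highest serum-free embryo. For in vivo over serum-free it was -0.05 (SE 0.50, adjusted p = 0.971).

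MYC, the growth-promoting transcription factor and itself a serum-induced gene, was below the count limit in each comparison of whole cultures, and it was highest in the serum embryos B2 and B5. In vivo embryos had 1 to 19 MYC counts, with a median of 9.5, and serum-free embryos 5 to 30, with a median of 10. Serum embryos had 329 counts in B2, 138 in B5, 46 in B3, 29 in B6, 28 in B8, 22 in B4, 10 in B1 and 9 in B7. B2 alone reached 77.9 CPM, B5 reached 15.5 CPM and B3 10.7 CPM, whereas the highest in vivo embryo had 4.66 CPM. The ranges still overlapped, as B1 and B7 lay at 2.85 and 2.77 CPM. Without the count limit, in vivo over serum gave a log2 fold change of -2.73 (SE 0.70, adjusted p = 0.0135), which would be a call. Leaving out B2 brought it to -1.58 with an adjusted p of 0.0873, and leaving out any other embryo kept the call. Serum over serum-free gave 2.11 (SE 0.67, adjusted p = 0.0730) and in vivo over serum-free -0.59 (SE 0.61, adjusted p = 0.678). The number of genes with a count was 11735 in B5, 12348 in B2, 12267 in B7 and 12390 in B1. MYC was lowest among the serum embryos in B7 and B1. Whether the number of genes with a count bears on the MYC level was not tested.

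SRF itself, the factor that binds the serum response element of these promoters, had 2 to 41 counts per embryo and medians of 4.32 CPM in vivo, 3.97 CPM in serum and 3.99 CPM in serum-free embryos. Its log2 fold changes without the count limit were -0.01 (SE 0.56) for in vivo over serum, 0.08 (SE 0.51) for in vivo over serum-free and 0.09 (SE 0.54) for serum over serum-free, with adjusted p of 0.990, 0.972 and 0.951.

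The comparisons were repeated within each sex, since the serum group held more females than the other groups. None of the 10 genes was called in any of these comparisons. Of all genes tested, 13.3% were called between in vivo and serum males and 0.418% between the females, 0.966% and 0.304% between in vivo and serum-free, and 5.9% and 0% between serum and serum-free. In the last, no gene was called among females although 961 of 8067 had an unadjusted p under 0.05. EGR1 gave a log2 fold change for serum over serum-free of 1.66 in males (SE 0.63, adjusted p = 0.133) and 1.06 in females (SE 0.57, adjusted p = 0.471), or 0.39 without B3. The difference between these, tested as an interaction, was 0.63 (SE 0.89) and was not called. In the interaction tests 0% of all genes were called. For in vivo and serum 436 genes had an unadjusted p under 0.05 where chance gives 422, for in vivo and serum-free 556 against 421, and for serum and serum-free 305 against 419. For in vivo over serum-free EGR1 gave 1.34 in males and 0.95 in females, and FOS 1.01 and 0.77. IER3 gave -1.15 in males and -0.72 in females for in vivo over serum, but -0.05 in males without B7 and -0.38 in females without A9. MYC passed the count limit only through the female serum embryos, where it was higher, as in vivo females held 2 to 10 counts. For in vivo over serum females it gave -3.65 (SE 1.26, adjusted p = 0.158), or -1.88 without B2. Between males and females of the same culture none of the genes tested was called either, where the background was 0.653% in vivo, 0.173% in serum and 0.139% in serum-free embryos. With sex as a covariate EGR1 kept its call between the media, at 1.37 with an adjusted p of 0.0436.

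Single embryos of the same culture differed more for several of these genes than for the median gene. The SD of log2(CPM + 1) for IER3 was 0.91 in vivo, 1.05 in serum and 1.47 in serum-free embryos, against a median over 7557 genes of 0.37, 0.61 and 0.46. EGR1 had 0.75, 0.79 and 1.17, and FOS 0.59, 0.64 and 0.87. With a pseudocount of 5 the EGR1 value in serum-free embryos was 0.72, against a median of 0.39. JUNB had 0.68, 1.24 and 0.64, against medians of 0.56, 0.82 and 0.65 over genes within 2-fold of its mean level. In serum, where B2 had 0 counts, a pseudocount of 5 gave JUNB 0.61, against a median of 0.51 over all genes. IER2 lay near the median of all genes, at 0.45, 0.62 and 0.39. These SDs are descriptions, and lower counts widen them.

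Deviations from the culture mean were correlated between FOS and the other 4 tested genes from embryo to embryo. Over 24 embryos FOS and EGR1 had a Pearson r of 0.517 (permutation p = 0.0186, adjusted over the 4 relations tested 0.0745) and a Spearman coefficient of 0.341 (permutation p = 0.103). Without B1 and C7, the embryos with the most extreme FOS values, r was 0.280 and the Spearman coefficient 0.290. C7 was low in both genes (FOS 10.8 CPM, EGR1 1.01 CPM). B1 was low in FOS (31.7 CPM), but its EGR1 level of 42.5 CPM lay above the serum median of 33.1 CPM. The coefficients without C7 alone were not computed. Within cultures r was 0.390 in vivo, 0.145 in serum and 0.756 in serum-free embryos. FOS and IER2 had r = 0.401 (permutation p = 0.0451, adjusted 0.0901; Spearman 0.374, permutation p = 0.0750) and r = 0.426 without the same pair of embryos. For FOS and IER3 r was 0.301 (permutation p = 0.159, adjusted 0.212; Spearman 0.394, permutation p = 0.0584). For FOS and JUNB r was 0.001 (permutation p = 0.958, adjusted 0.958; Spearman 0.061, permutation p = 0.777). No relation passed the adjustment. Between FOS and the 7556 other genes at the limit, r was -0.432 at the 5th percentile and 0.441 at the 95th. The r of FOS with IER2, IER3 and JUNB lay within this span, and that with EGR1 above it. All values of an embryo share its library, so depth and composition enter each of these coefficients.

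**Figure D3:**
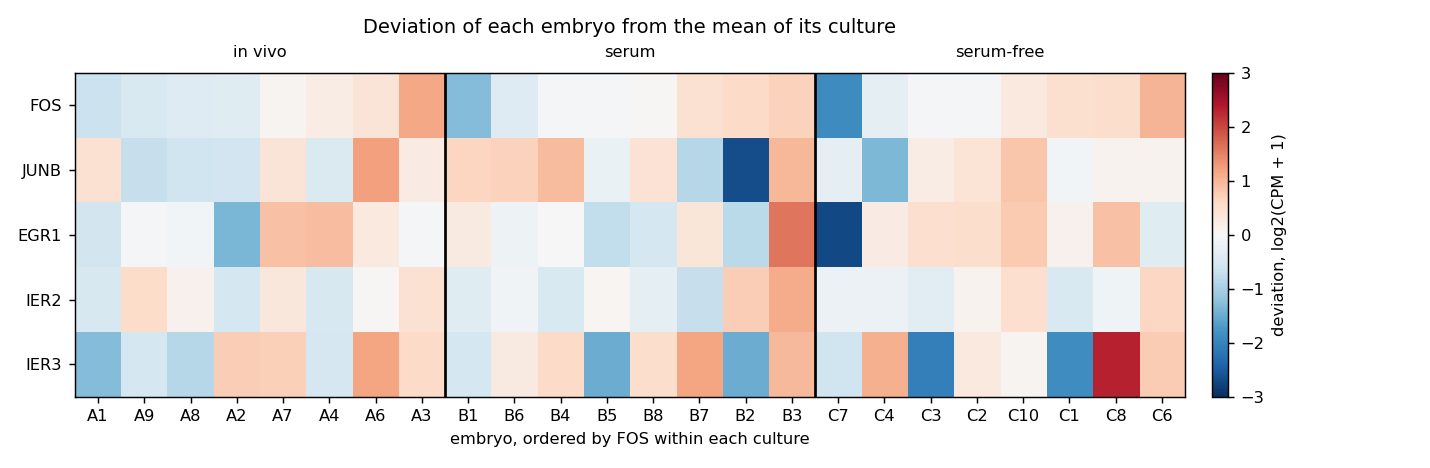
Deviation of each embryo from the mean of its culture for the 5 genes that passed the count limit, on the log2(CPM + 1) scale, with embryos ordered by FOS within each culture. Red is above and blue below the mean. The strongest blue cells are EGR1 in C7 (1.01 CPM) and JUNB in B2 (0 counts), and the strongest red cell is IER3 in C8 (172 CPM).

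The genes whose deviations most resembled those of each tested gene, among the 7556 others at the limit, were as follows. For FOS they were MPHOSPH10 (r = 0.813), HDAC5 (r = 0.740) and CDK1 (r = 0.740). For EGR1 they included HCCS (r = 0.791) and C19H17orf42 (r = 0.744). For JUNB they were CCDC28B (r = 0.884), FKBP8 (r = 0.878) and USP48 (r = 0.850). For IER2 they were BAMBI (r = 0.708), ATP6V1B2 (r = 0.682) and an unnamed gene, ENSBTAG00000046340 (r = 0.681). For IER3 they were ZNF518B (r = 0.730), an unnamed gene, ENSBTAG00000037421 (r = 0.719), and IFNT, the trophoblast interferon (r = 0.719). None of these leading genes was itself one of the 10. They are the extremes of a very large number of coefficients over 24 embryos and are given as a description.

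The wider class was examined through a list of 36 other immediate early genes, of which 32 were in the table. Between serum and serum-free 16 passed the count limit, and 4 were called higher in serum against 3.9% of all genes tested. They were TRIB1 (log2 fold change 1.38, adjusted p = 0.0211), a pseudokinase, DUSP1 (1.38, adjusted p = 0.0330), the phosphatase that shuts off MAP kinases, KLF4 (1.14, adjusted p = 0.0158), a pluripotency factor, and BTG1 (1.06, adjusted p = 0.0189), an anti-proliferative gene. ZFP36L1, an RNA-binding protein that destabilises transcripts, was called lower in serum (-1.39, adjusted p = 0.0299), against 5.07% of all genes. The median of the 16 was 0.64, against 0.04 over all genes tested, with 12 positive and 4 negative values. Single embryos decided several of these calls. Without B3 a single gene, TRIB1, was called. DUSP1 was lost with sex as a covariate (adjusted p = 0.0584), without the count limit (0.0502) and without B2, B3, B7, C3, C4 or C10 (adjusted p 0.0533 to 0.0747) and ZFP36L1 without B3, B7, C1 or C10 (adjusted p 0.0521 to 0.0599). KLF4 was lost without B3 (log2 fold change 0.94), and BTG1 without B2, B3 or C3 (0.83 to 0.97) and, at just under 2-fold, with the limit set in every embryo of both groups.

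Between in vivo and serum 17 of the listed genes were tested, and 3 were called higher in serum against 6.92% of all genes. They were SGK1 (-1.66, adjusted p = 0.00180), a serum- and glucocorticoid-induced kinase, CTGF (-1.15, adjusted p = 0.0202), a matricellular protein, and DUSP1 (-1.11, adjusted p = 0.0146). KLF6, a zinc finger factor, was called higher in vivo (1.21, adjusted p = 0.0187). The median of the 17 was -0.41, against -0.05 over all genes. SGK1 and KLF6 kept their calls without any 1 embryo, whereas CTGF fell just under 2-fold without A9 and DUSP1 without B2 (-0.92) or B3 (-0.87). Between in vivo and serum-free 17 were tested and 0 were called, with a median of 0.25 against -0.01 over all genes, where 14 values were positive. At the same time 2 of the genes called between the media, ZFP36L1 and TRIB1, gave -0.80 and 0.77 for in vivo over serum-free.

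**Figure D4:**
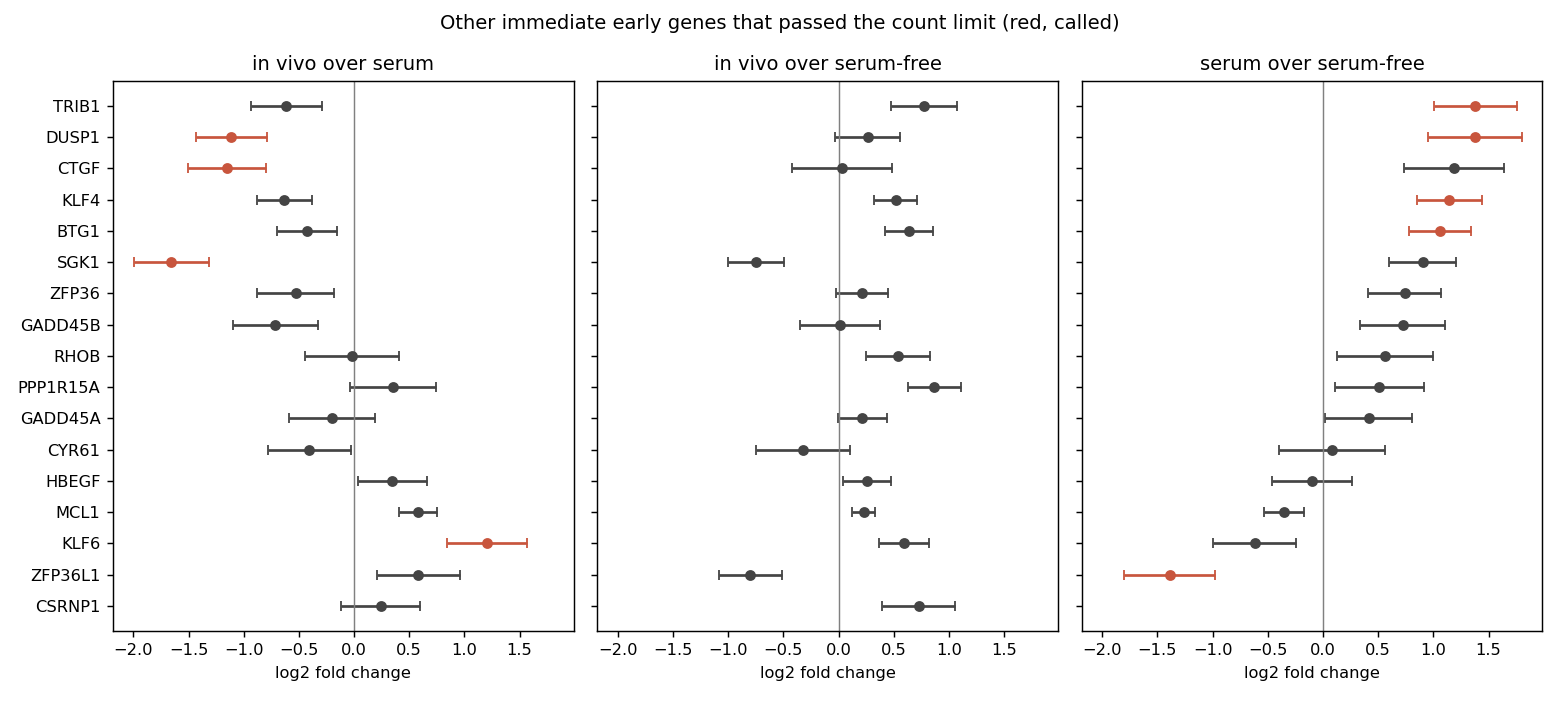
Log2 fold changes with SE of 17 other immediate early genes that passed the count limit, from 8 against 8 embryos in each comparison, ordered by serum over serum-free. Red marks genes called. CSRNP1 was not tested between serum and serum-free. Between the media TRIB1, DUSP1, KLF4 and BTG1 were called higher in serum and ZFP36L1 lower.

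Genes upstream of the class were tested from fixed lists. Of 21 genes of the ERK cascade, from receptor to RSK kinases, 15 passed the limit between in vivo and serum and 3 were called, against 13.7% of all genes tested. ERBB3, a receptor of the EGF receptor family (2.16, adjusted p = 0.0106), and the scaffold KSR1 (1.23, adjusted p = 0.00930, but 0.0694 without the count limit) were higher in vivo, and the kinase RPS6KA3 (-2.05, adjusted p = 0.00460) was higher in serum. Between serum and serum-free 1 of 14 was called, against 8.97% of all genes. This was ERBB3 (-1.96, adjusted p = 0.0450), which kept that call in 4 of 16 fits that each left out 1 embryo and lost it with sex as a covariate (adjusted p = 0.0520) and without the count limit (0.0730). None of 13 was called between in vivo and serum-free. None of the 3 AP-1 partners tested (ATF2, ATF3 and MAFG), the SRF cofactor MKL2 or the EGR1 co-repressor NAB1 was called in any comparison of whole cultures.

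Genes downstream of the class were tested from fixed lists too. Their calls went in both directions, and whether they followed the members was not tested. Of 7 tested cytoskeletal genes known as SRF targets, 4 were higher in vivo than in serum, against 6.81% of all genes: VCL (1.02, adjusted p = 0.00124), CNN2 (2.45, adjusted p = 0.00663), TAGLN2 (1.70, adjusted p = 0.000942) and FLNA (1.55, adjusted p = 0.0473). CNN2 (-2.82), TAGLN2 (-1.47) and FLNA (-1.89) were lower in serum than in serum-free embryos too (3 of 7, against 5.07% of all genes), with adjusted p of 0.0117, 0.0122 and 0.0339. The calls of CNN2 and TAGLN2 held without any 1 embryo, that of FLNA held in 5 and in 10 of 16 such fits and was lost without the count limit (adjusted p 0.0582 and 0.0502), and VCL fell under 2-fold without A4, A9, B2, B5 or B7 (0.92 to 0.99). PLAU, the urokinase gene and an AP-1 target, was higher in vivo than in serum (2.78, adjusted p = 0.00329) and lower in serum than in serum-free (-2.37, adjusted p = 0.0260), the latter lost without B7 or C7 (adjusted p 0.0508 and 0.0802). It was 1 of 2 AP-1 targets tested in the first comparison, against 6.81% of all genes, and 1 of 3 in the second, against 5.07%. Among MYC partners and targets, MAX, the obligate partner of MYC, was higher in serum than in vivo (-1.09, adjusted p = 0.00462), as was NPM1, a nucleolar protein (-1.15, adjusted p = 0.000487). Without B2, the embryo richest in MYC, both fell under 2-fold (-0.85 and -0.92). Their adjusted p there stayed under 0.05, at 0.00774 and 7.06e-05. MAX also fell under 2-fold with the limit set in every embryo of both groups. It was the only 1 called of 5 MYC network genes tested, against 6.92% of all genes higher in serum. CCND2, a cyclin, went the opposite way, at 3.27 (adjusted p = 0.00259) for in vivo over serum. Of 10 MYC targets tested, 1 was thus called in each direction, against 6.81% of all genes higher in vivo and 6.92% higher in serum. Of the 8 not called, NOP56 (-0.54, adjusted p = 0.00402) and CAD (-0.47, adjusted p = 0.0370) were under 2-fold. The 8 values ran from -0.54 to 0.84, the latter for LDHA (adjusted p = 0.207). CCND2 was also called higher in vivo than in serum-free embryos, as 1 of 10 MYC targets, against 2.24% of all genes in either direction. It was called lower in serum than in serum-free embryos too, again as 1 of 10, against 5.07%. With 1 embryo left out, its adjusted p stayed under 0.05 in 10 of 16 and 5 of 16 fits, respectively. The CCND2 call between in vivo and serum-free was lost in 1 fit over all 24 embryos (adjusted p = 0.410). That between the media was lost with sex as a covariate (0.0803) and without the count limit (0.0662).

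Levels of several lineage markers differed in the serum group, and the markers of 1 lineage did not all go the same way. The summed level of 8 trophectoderm markers was 7360.5 to 14700.4 CPM in vivo, 323 to 5195 CPM in serum and 5017 to 27739 CPM in serum-free embryos, with C7 highest, and KRT8 made up most of the mean in each culture. Of 6 trophectoderm markers tested, 4 were called lower in serum than in both other groups: KRT8, KRT18, GATA2 and GATA3. GATA2 (7 to 102 counts in serum) and GATA3 (3 to 208) entered both tests through the other group alone, where they were higher. KRT8 and KRT18 passed the count limit in all 3 groups. Of all genes tested, 6.81% were called lower in serum than in vivo and 5.07% lower in serum than in serum-free embryos. The other 2 markers, TEAD4 and TFAP2C, were not called, at -0.75 (adjusted p = 0.0895) and -0.35 (adjusted p = 0.238) for in vivo over serum. Of 3 inner cell mass markers tested, SOX2 was called higher in serum than in vivo (-1.28, adjusted p = 0.0238), against 6.92% of all genes. The SOX2 call was lost without B3 (-0.93, adjusted p = 0.0688) and without the count limit (adjusted p = 0.0517). SALL4 (-0.71, adjusted p = 0.0960) and POU5F1, which went the opposite way (0.52, adjusted p = 0.121), were not called. Of 3 hypoblast markers tested PDGFRA was called lower in serum than in vivo (2.01, adjusted p = 0.00114), against 6.81% of all genes. FGFR2 (0.59) and GATA6 (-0.20) were not called. The part of these markers in the EGR1, IER3, MYC and cytoskeletal values was not tested. Markers of cumulus cells summed to 3.38 to 51.3 CPM and of blood cells to 3.12 to 11.4 CPM over all embryos. PTX3 and S100A9 were at 0 in every embryo, whereas CYP19A1 reached 154 counts, STAR 148, HAS2 133 and CD68 33. Of 6 heat shock genes, HSPA1A was higher in serum (-2.34, adjusted p = 0.00961) and in serum-free embryos (-1.76, adjusted p = 0.0205) than in vivo, and HSPB1 in serum-free embryos (-1.15, adjusted p = 0.00200). These were 1 of 6 between in vivo and serum, against 13.7% of all genes, and 2 of 6 between in vivo and serum-free, against 2.24%. In 1 fit over all 24 embryos both calls against serum-free were lost (adjusted p = 0.122 for HSPA1A and 0.0639 for HSPB1), and HSPB1 fell under 2-fold without C7 (-0.96). None of the 6 was called between serum and serum-free, where the background was 8.97%.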

How the data were processed

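The authors sequenced amplified cDNA of 24 single bovine early blastocysts and deposited 1 table of raw exon read counts per gene. Per their methods, reads were trimmed, mapped to the UMD 3.1 genome with Ensembl annotation and counted in the CLC Genomics Workbench when uniquely placed in exons. The reads carried no strand information, so reads of a gene and of an overlapping antisense gene cannot be told apart, and reads shared by near-identical copies were not counted. The comparison of serum with serum-free embryos was not part of the study's design and was added. Groups, sexes and media were taken from the sample labels. All 24 columns differed, and none was left out.

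From the deposited counts, genes with at least 15 counts in every embryo of either group compared were tested with the quasi-likelihood test of edgeR 4.0.16 (R 4.3.3) after TMM normalisation, each pair of groups on its own. The p-values were Benjamini-Hochberg adjusted over all genes tested. Log2 fold changes are first over second group, their SE is the log2 fold change divided by the root of the F statistic, and intervals are 95%. CPM values use TMM over all 24 embryos, with a pseudocount of 1 on the log2 scale. Correlations used 100000 permutations, two-sided. The script was tested on simulated data. The members, lists and tests were chosen with earlier results of these data known. Named are all 10 genes, the called genes of each list (at most 4 per list by adjusted p), and the 3 most correlated genes, of which 1 is not reported here. A planned motif search in promoters was not run, since promoter sequences were not used here, and no coordinates are given because the reference gene table was of another build. Alternatives were the exact test, DESeq2 1.42.0, its size factors, other count limits, a single fit over all embryos, sex or replicate number as a term, thinned counts and leaving out each embryo.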

Additional observations from a re-analysis of the deposited data

Results flagged for a closer look

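Of 43 sets checked, each of 1 gene in a group of 8 or 5 embryos, 6 held an embryo set apart from the others by Dixon's criterion. About 2.15 would be given by chance if the sets were independent. They were not, since a sex group lies within its culture, and all 6 flags fell on C7 or B2. The serum-free male C7 was lowest for FOS, at 10.8 CPM (43 counts), and for EGR1, at 1.01 CPM (4 counts), among all 8 serum-free embryos. EGR1 in C7, 1.01 CPM, also stood apart among the 5 serum-free males. C7 had the highest summed level of trophectoderm markers, 27739 CPM, and its total of 4569863 counts was within the range of the other embryos.

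The serum female B2 stood apart among the 5 serum females for 3 genes. JUNB was at 0 counts there, against a floor of 0.658 CPM. IER3 was lowest at 29.4 CPM and SRF highest at 5.68 CPM. The SRF difference was small, at 24 counts in B2 against 17 to 23 in the other serum females. SRF was also below the count limit in the comparisons of whole cultures, and the serum male B1 had 10.6 CPM. B2 also had the most MYC counts, 329, and 12348 genes with a count. What set these embryos apart was not tested.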

How the results depend on the processing

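The number of the 10 genes called between in vivo and serum was 0, and it was 1 with the exact test, with DESeq2 (IER3 in both) and with genes of at least 1 count in any embryo (MYC). Leaving out 1 embryo gave 0 to 1, with 1 gene called without A6, B2 or B5. Between in vivo and serum-free it was 0, 1 with DESeq2 (EGR1) and 0 to 1 with 1 embryo left out, with 1 gene called without C6. Between serum and serum-free it was 1, but 0 with genes of at least 1 count in any embryo, 0 with the limit set in every embryo of both groups (where EGR1 was not tested) and 0 to 2 with 1 embryo left out (0 without B3, B7, C1, C4 or C6, and 2 without C8). In the comparisons within a sex, between the sexes and of their interaction it stayed at 0 under each alternative run.

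The embryo numbers pair nothing by the labels: over 7 shared numbers the correlation of deviations ran from -0.12 to 0.08, with 0 pairs over 0.1. With the replicate number as a block, 27 of 7306 genes were called between serum and serum-free, and 0 of the 10 described here (EGR1 1.66, adjusted p = 0.113), and IER3 for in vivo over serum-free turned from -0.05 to 0.50.

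None of the differences that changed direction was called. IER2 for serum over serum-free was 0.06, -0.00198 with the stricter limit, -0.056 with sex as a covariate and -0.16 to 0.17 with 1 embryo left out. With 1 embryo left out FOS for in vivo over serum gave -0.14 to 0.21, EGR1 -0.48 to 0.074 (above 0 without B3 alone), IER3 for in vivo over serum-free -0.26 to 0.53 and MYC for serum males over females, -1.49 with all embryos, -2.85 to 0.25, the last without B2. The FOS and JUNB correlation was -0.0098 with the size factors of DESeq2. The causes were not tested. The MYC fits without the count limit were added after its counts were seen. FOSB, FOSL1, JUN, MYC and SRF had 97 to 805 counts each over 24 embryos and did not pass the count limit in the comparisons of whole cultures.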
